A study of Mus musculus with 18 samples.

Results

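The genes described here are the 10 genes of the folliculin, Rag and MiT/TFE axis, namely *Flcn*, *Fnip1* and *Fnip2* of the folliculin complex, the Rag GTPase genes *Rraga*, *Rragc* and *Rragd*, the MiT/TFE transcription factor genes *Tfe3*, *Tfeb* and *Mitf*, and their target *Gpnmb*. They were chosen by gene symbol from a list, and not by any measured value. All 10 were found among the 24369 rows of the deposited gene table and among the 24296 genes whose counts were summed here, and all 10 passed the filter on low counts in both sets of libraries. In the RefSeq annotation of GRCm38.p6, *Flcn* lies at chr11:59791408-59810039, *Fnip1* at chr11:54438107-54518241 and *Fnip2* at chr3:79455971-79568151. The Rag genes lie on chromosome 4, *Rraga* at chr4:86575673-86577285, *Rragc* at chr4:123917433-123936997 and *Rragd* at chr4:32982998-33022180. *Tfe3* lies at chrX:7762530-7775202, *Tfeb* at chr17:47737037-47792416, *Mitf* at chr6:97807002-98021360 and *Gpnmb* at chr6:49036518-49058182.

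RNA was sequenced from E14 mouse embryonic stem cells (mESCs) of the genotype Rex1GFPd2-Cas9, which carry a short-lived GFP driven by *Rex1* (*Zfp42*), a gene of naive pluripotent cells, and a Cas9 gene. All libraries of the study share this background. The first set followed unedited cells before differentiation (day 0) and on days 1, 2 and 3 of it, with 3 libraries per day. The second set was made from GFP+ cells sorted from 3 genotypes, wild-type, *Nprl2*-/- (*Nprl2* KO) and *Tsc2*-/- (*Tsc2* KO), with 2 libraries each. The KO lines were grown from single colonies after deletion of an exon, so a difference between genotypes includes any difference between clones. *Nprl2* encodes a subunit of Gator1, which switches off the Rag GTPases when amino acids are short, and *Tsc2* encodes a subunit of the Tsc complex, which switches off the GTPase Rheb. Both complexes restrain the kinase complex mTORC1. Per the methods, cells were differentiated in NDiff227 medium from which LIF and both kinase inhibitors were left out. The paper names serum with LIF on feeder cells as the usual culture, and does not name the culture of the day 0 cells. Whether libraries of a group came from separate cultures is not given in the sources used here, so p-values measure the spread between these libraries, which may be technical.

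In the textbook account, Rag GTPases work at the surface of the lysosome as pairs of RagA or RagB with RagC or RagD, and bring mTORC1 there when amino acids are plentiful. Folliculin, bound to Fnip1 or Fnip2, is the GTPase-activating protein for RagC and RagD, and RagC or RagD in its GDP-bound form holds Tfe3, Tfeb and Mitf at the lysosome, where mTORC1 phosphorylates them and keeps them out of the nucleus. In the nucleus these factors bind E-box sequences and switch on genes of lysosomes and autophagy. In mESCs, folliculin and Tfe3 are known for their part in the exit from naive pluripotency.

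Total estimated counts were between 12503005 and 15305054 per library in the time course and between 8610357 and 13780861 in GFP+ cells. At these totals the 3 counts that a count of 0 allows correspond to 0.196 to 0.348 CPM (counts scaled to the library total), for counting error only, since the reads carry no molecular identifiers and may be copies of one molecule. The deletions were visible in their own genes. *Nprl2* was at 11.7 and 12.6 CPM in wild-type libraries against 5.96 and 6.50 CPM after its deletion, and *Tsc2* was at 152.3 and 155.5 CPM against 63.7 and 67.3 CPM. The summed level of 7 ES cell markers was 4963 to 5235 CPM on day 0 and 1151 to 1420 CPM on day 3. Of these markers, only *Utf1* did not fall, at 218 to 251 CPM on day 0 and 242 to 310 CPM on day 3. The summed level of 4 formative epiblast markers was 214 to 283 CPM on day 0 and 2487 to 2764 CPM on day 1. In every group most of this sum came from *Dnmt3b* (190 to 266 CPM on day 0 and 1937 to 2159 CPM on day 1). In GFP+ cells, the formative markers summed to 817 and 945 CPM (wild-type), 1138 and 1330 CPM (*Nprl2* KO) and 212 and 219 CPM (*Tsc2* KO). The formative sum thus differed between day 0 and day 1 and between genotypes, and its part in the results was not tested. On days 2 and 3 this sum was 3003 to 3652 CPM and 2424 to 3019 CPM, ranges that overlap. In such bulk samples, fewer cells of a type and less RNA per cell cannot be told apart.

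Promoter sequences of the 10 genes were taken from RefSeq (GRCm38.p6), as 15 windows that hold the 250 bases before each annotated start. They were searched on both strands for the E-box CACGTG that MiT/TFE factors can bind and for its extended form TCACGTGA. Also searched was TCATGTGA, which does not contain CACGTG and, like TCACGTGA, is known from genes of these factors. The last motif was CTTTGAT, the core bound by Tcf/Lef factors of the Wnt pathway. CACGTG lies within TCACGTGA. CACGTG was found in 2 of the 15 windows and in 6.02% of all 32851 windows, CTTTGAT was found in 1 of the 15 and in 3.21% of all, and TCACGTGA and TCATGTGA, which 0.785% and 0.846% of all windows held, had no match. All 3 matches found are shown with 40 bases on each side, the motif in capitals. They lie at *Fnip1*, *Rragc* and *Mitf*, which differed between genotypes, as did *Flcn*, *Fnip2* and *Tfe3*, which had no match. A link between matches and changes was not tested. A match is a description of letters and not of binding.
Fnip1: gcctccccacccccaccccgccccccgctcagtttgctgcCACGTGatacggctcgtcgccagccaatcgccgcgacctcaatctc
Rragc: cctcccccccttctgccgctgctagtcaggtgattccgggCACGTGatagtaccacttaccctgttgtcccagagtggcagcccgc
Mitf: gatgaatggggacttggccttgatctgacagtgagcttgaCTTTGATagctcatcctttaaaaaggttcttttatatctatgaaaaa
The printed stretch of *Fnip1* lies at chr11:54438064-54438149 (+ strand), with its motif 75 bases before the start. That of *Rragc* lies at chr4:123917281-123917366 (+ strand), with its motif 112 bases before the start. That of *Mitf* lies at chr6:97991538-97991624 (+ strand), with its motif 205 bases before the most downstream of the gene's 3 starts. The first overlaps the outermost annotated end of its gene (chr11:54438107), the second lies outside the gene, and the third lies within the *Mitf* gene, which the longer transcripts span.

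On day 0, *Tfe3* had the highest length-scaled level of the 10 genes, at 95.7 ± 4.05 TPM, a level scaled by transcript length and library total (SD, n = 3). The GTPase gene *Rraga* followed at 82.7 ± 6.61 TPM and *Tfeb* at 49.2 ± 2.64 TPM. *Flcn* (35.2 TPM) and *Rragc* (35.1 TPM) overlapped in their ranges, as did *Fnip2* (23.0 TPM), *Rragd* (19.7 TPM) and *Fnip1* (18.5 TPM) from each to the next. *Mitf* was at 13.9 ± 0.319 TPM and *Gpnmb* was lowest at 0.538 ± 0.0747 TPM. By day 3 the order had changed. *Rraga* was first (98.0 TPM), ahead of *Tfe3* (93.2 TPM), *Rragd* came next at 74.2 TPM, and *Tfeb*, *Gpnmb* and *Mitf* were the lowest at 2.69, 1.19 and 0.588 TPM. No neighbouring pair of genes overlapped in its range on day 3.

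The time course asks how these genes move as cells leave naive pluripotency. In the first day, 8 of the 10 genes changed, 3 higher and 5 lower, where 60.9% of all 14382 genes tested did (30.1% higher and 30.8% lower). The median change on the log2 scale (log2 fold change, log2FC) was -0.23 over the 10 genes and 0.00 over all genes tested. From day 1 to day 2, 5 changed (4 higher, 1 lower) against 62.1% of all genes (32.5% higher, 29.6% lower), and from day 2 to day 3 there were 3 (1 higher, 2 lower) against 31.5% (15.9% higher, 15.6% lower). Between day 0 and day 3, 7 of the 10 differed, 4 higher and 3 lower, against 70.9% of all genes (35% higher, 35.9% lower). With so many genes changing, nothing is read from these counts, and the results below are about the size and timing of each gene's change. Comparisons of days share libraries and are not independent of one another.

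**Figure D1:**
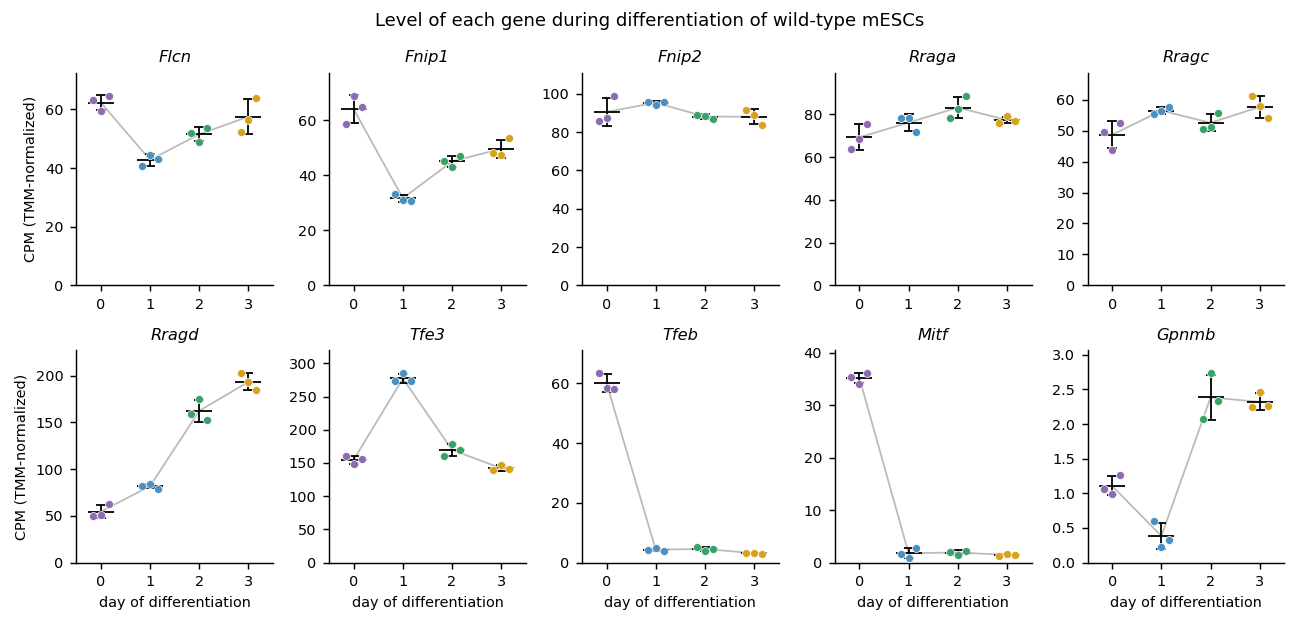
Level of each of the 10 genes (CPM on TMM-normalized library sizes, linear axis from 0) on days 0, 1, 2 and 3 of differentiation. Points are libraries (3 per day), horizontal bars are means, vertical bars are SDs and grey lines join the means. *Tfeb* and *Mitf* dropped to below 6 CPM on day 1 and stayed there, *Tfe3* peaked on day 1 at 273 to 285 CPM, and *Rragd* climbed to between 185 and 203 CPM on day 3.

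*Tfeb* and *Mitf*, the transcription factors best known from lysosome biogenesis and from pigment cells, fell most. *Tfeb* was at 63.4, 58.5 and 58.2 CPM in the 3 day 0 libraries, and at 4.24, 4.71 and 4.0 CPM on day 1. It was 13.9-fold lower on day 1 (log2FC -3.79, SE 0.11, adjusted p = 1.19e-15, edgeR), a change in the lowest 0.730% of all genes tested. *Mitf* was at 35.4, 34.1 and 36.1 CPM on day 0 and at 1.71, 0.836 and 2.85 CPM on day 1, which was 19.7-fold lower (log2FC -4.30, SE 0.21, adjusted p = 4.54e-12). In both genes every day 0 library stood above every later library of the time course. *Tfeb* then lay between 3.95 and 5.20 CPM on day 2 and between 2.86 and 3.33 CPM on day 3, a further fall (log2FC -0.55, SE 0.15, adjusted p = 0.00991), although its call was lost without day 2 replicate 1 (adjusted p = 0.0692). *Mitf* stayed between 1.29 and 2.26 CPM on days 2 and 3 and differed from neither neighbouring day (adjusted p = 0.811 for day 2 against day 1 and 0.381 for day 3 against day 2).

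The 3 annotated transcripts of *Mitf* begin at chr6:97807058, chr6:97929799 and chr6:97991792 (GENCODE M21, + strand). The CTTTGAT match above lies before the most downstream of these starts. On day 0, the transcript from that start held 78.0% to 88.0% of the gene's TPM in the 3 libraries, at 11.1 to 11.9 TPM. On day 1 it was at no more than 0.648 TPM. The assignment of reads among transcripts is an estimate of kallisto, and at the low levels of later days it moved between 0% and 100% from one library to the next. The 6 melanocyte markers summed to 26.3 to 31.9 CPM on day 0 and to 11.2 to 14.8 CPM on day 1, and their part in the result was not tested. Of them, *Pmel*, a melanosome gene, was at 19.4 to 25.3 CPM on day 0 and at 2.58 to 3.59 CPM on day 1. *Tyr* was at 4.66 to 5.04 CPM on day 0 and at 5.73 to 8.65 CPM on day 1, *Mlana* at 1.65 to 2.05 and at 1.82 to 2.53 CPM, and *Tyrp1*, *Dct* and *Sox10* at no more than 0.245 CPM on either day.

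*Tfe3*, the family member known for its part in mESC self-renewal, moved the other way on the first day. Its level was 160.4, 148.2 and 155.7 CPM on day 0 and 272.8, 285.2 and 273.4 CPM on day 1, with no overlap. It was 1.79-fold higher on day 1 (log2FC 0.84, SE 0.06, adjusted p = 2.33e-10). It then fell to 160.5, 178.8 and 169.3 CPM on day 2 (log2FC -0.71, SE 0.06, adjusted p = 3.72e-09) and again to 138.9, 146.9 and 140.3 CPM on day 3 (log2FC -0.26, SE 0.06, adjusted p = 0.00242). Its day 3 level lay below that of every day 0 library, by a log2FC of -0.12 that did not pass the test (95% interval -0.24 to -0.00, adjusted p = 0.0606). *Tfe3* lies on the X chromosome, whose 541 tested genes moved by a median of 0.13 (log2FC) between day 0 and day 1.

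The opposite moves of the 3 factors changed the make-up of the family more than its sum. Their summed level was 158.8 ± 6.69 TPM on day 0 and 167.9 ± 3.54 TPM on day 1 (exact permutation test, two-sided, p = 0.2). *Tfe3* made up 60.3% ± 0.409 of the sum on day 0 and 97.6% ± 0.101 on day 1, while *Tfeb* went from 31.0% to 1.99% and *Mitf* from 8.79% to 0.396% (n = 3 libraries each). The exact permutation test gave p = 0.1 for the share of *Tfe3*, the smallest that 3 libraries against 3 can give. The sum was 112.3 ± 5.97 TPM on day 2 and 96.5 ± 2.76 TPM on day 3, with *Tfe3* at 95.9% and 96.6% of it.

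**Figure D2:**
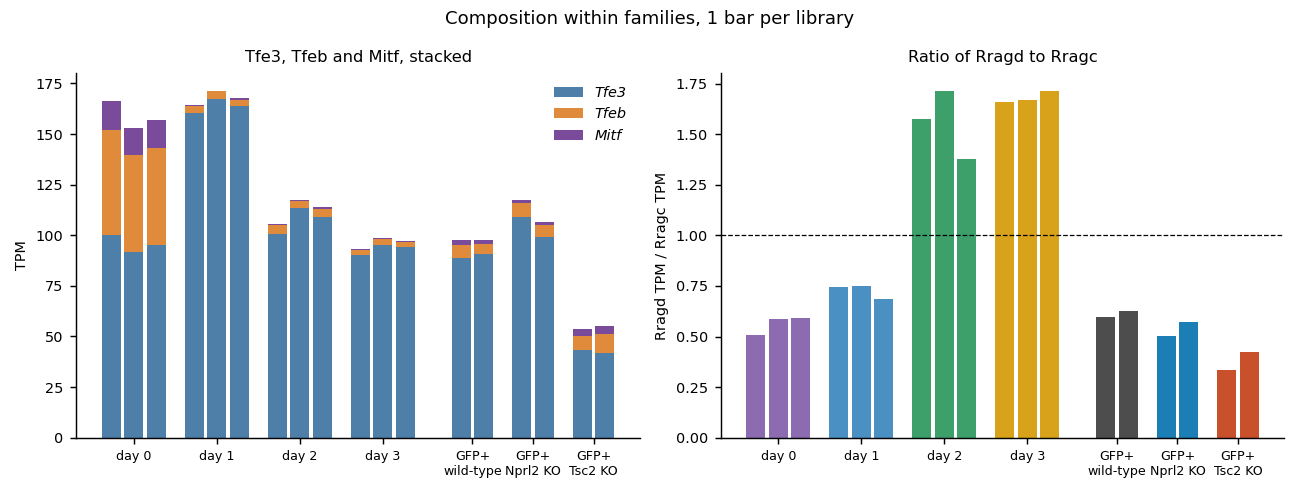
Left, TPM of *Tfe3*, *Tfeb* and *Mitf* stacked in each library. Right, the ratio of *Rragd* to *Rragc* TPM in each library, with a dashed line at a ratio of 1. Each bar is 1 library, grouped by day of differentiation and by GFP+ genotype. *Tfeb* and *Mitf* are a visible part of the stack on day 0, the sum is lowest in *Tsc2* KO (54.3 TPM), and the ratio exceeds 1 only on days 2 and 3.

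Of the Rag GTPase genes, *Rragd* rose at every step. Its libraries were at 50.1, 51.3 and 62.2 CPM on day 0, at 82.4, 84.0 and 79.0 CPM on day 1, at 158.9, 175.4 and 153.1 CPM on day 2, and at 202.7, 192.8 and 184.5 CPM on day 3. No 2 days overlapped. The steps were log2FC values of 0.59 (SE 0.08, adjusted p = 2.96e-06), 0.99 (SE 0.08, adjusted p = 1.95e-09) and 0.25 (SE 0.07, adjusted p = 0.0132), and the level was 3.55-fold higher on day 3 than on day 0 (log2FC 1.83, SE 0.08, adjusted p = 9.78e-14). The last step missed the threshold without day 2 replicate 1 (adjusted p = 0.0550).

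*Rragc*, whose product takes the same place in the Rag pair as RagD, moved far less. It was at 49.7, 43.9 and 52.6 CPM on day 0 and at 55.4, 56.3 and 57.7 CPM on day 1, a log2FC of 0.22 (SE 0.08, adjusted p = 0.0181) that was lost without day 0 replicate 2 (adjusted p = 0.141), without day 1 replicate 3 (adjusted p = 0.0568) and with limma on TPM (adjusted p = 0.109). On day 3 it was at 61.2, 57.9 and 54.0 CPM (log2FC against day 0 of 0.25, SE 0.07, adjusted p = 0.00620), which was lost without day 0 replicate 2 (adjusted p = 0.0549). Per length, *Rragd* was thus the lesser of the pair on days 0 and 1 and the greater on days 2 and 3. The ratio of *Rragd* to *Rragc* TPM was 0.562 ± 0.0490 on day 0, 0.727 ± 0.0348 on day 1, 1.56 ± 0.171 on day 2 and 1.68 ± 0.0288 on day 3 (SD, n = 3). As a share of their sum, *Rragd* went from 35.9% ± 2.05 on day 0 to 62.7% ± 0.399 on day 3 (exact permutation p = 0.1, the smallest possible here).

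*Rraga*, which encodes the partner of RagC and RagD, kept between 63.7 and 88.6 CPM in all 12 libraries. It was at 63.7, 68.4 and 75.6 CPM on day 0 and at 76.0, 79.0 and 76.9 CPM on day 3. That difference was the only one of its 4 comparisons to pass, barely (log2FC 0.16, SE 0.07, adjusted p = 0.0495). It was lost in 8 of 15 alternative fits, among them those without day 0 replicate 1 (adjusted p = 0.250) or replicate 2 (0.110) and without day 3 replicate 1 (0.0656), replicate 2 (0.128) or replicate 3 (0.0801).

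The folliculin genes *Flcn* and *Fnip1* dipped on day 1 and partly came back. *Flcn* was at 63.1, 59.4 and 64.6 CPM on day 0 and at 40.6, 44.6 and 43.1 CPM on day 1 (log2FC -0.54, SE 0.08, adjusted p = 5.84e-06). It rose to 51.9, 48.9 and 53.8 CPM on day 2 (log2FC 0.27, SE 0.08, adjusted p = 0.00558) and was at 52.4, 56.3 and 64.0 CPM on day 3, where its range overlapped that of day 0 (log2FC -0.12, 95% interval -0.27 to 0.04, adjusted p = 0.176). *Fnip1* was at 58.5, 68.7 and 64.6 CPM on day 0 and at 33.0, 31.1 and 30.8 CPM on day 1, 2.02-fold lower (log2FC -1.02, SE 0.08, adjusted p = 1.18e-09). The recovery of *Fnip1* to 45.2, 42.8 and 47.0 CPM on day 2 passed the test (log2FC 0.51, SE 0.08, adjusted p = 1.62e-05), and on day 3, at 48.0, 47.4 and 53.3 CPM, it was still below day 0 (log2FC -0.37, SE 0.07, adjusted p = 1.83e-04).

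*Fnip2*, the paralog that can take the place of *Fnip1* beside folliculin, stayed between 83.7 and 98.8 CPM in all 12 libraries, and none of its 4 comparisons passed. The largest, day 2 against day 1, had a log2FC of -0.11 (95% interval -0.24 to 0.02, adjusted p = 0.121). The share of *Fnip1* in the summed TPM of the pair was accordingly 44.5% ± 2.43 on day 0, 27.3% ± 0.729 on day 1, 36.7% ± 1.30 on day 2 and 39.0% ± 2.55 on day 3 (exact permutation p = 0.1 for day 1 against day 0, the smallest possible here).

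*Gpnmb*, a transmembrane glycoprotein gene used as a reporter of Tfe3 and Tfeb activity in other cells, was near the detection limit. Its counts were 13, 15 and 16 on day 0, 8, 3 and 4 on day 1, 26, 36 and 30 on day 2, and 33, 34 and 30 on day 3. In CPM these were 1.11 ± 0.137 on day 0, 0.383 ± 0.190 on day 1, 2.38 ± 0.331 on day 2 and 2.32 ± 0.122 on day 3 (SD, n = 3). Day 1 was below day 0 in every library (log2FC -1.49, SE 0.38, adjusted p = 0.00205), day 2 above day 1 (log2FC 2.60, SE 0.33, adjusted p = 1.83e-06), and day 3 above day 0 (log2FC 1.07, SE 0.27, adjusted p = 0.00167). *Gpnmb* is abundant in macrophages, whose 6 markers summed to 24.9 to 26.9 CPM on day 0 and 36.9 to 43.2 CPM on day 1. On days 2 and 3 they summed to 7.67 to 10.5 and 9.19 to 14.2 CPM. These sums were mostly *Cd68*. *Trem2* was at no more than 0.164 CPM on day 0 and at 0.653 to 1.52 CPM on day 1. *Csf1r* and *Ptprc* were at no more than 0.157 and 0.447 CPM in the time course. The part of such cells in the result was not tested.

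Over the 12 libraries of the time course, the genes most alike in log2 CPM to a given member were *Ulk1*, an autophagy kinase, for *Tfeb* (Pearson r = 0.993), *Ccne1*, which encodes cyclin E1, for *Tfe3* (r = 0.990), and *Shisal1* for *Rragd* (r = 0.994). *Pdpk1* was nearest to *Mitf* (r = 0.987), *Washc1* to *Fnip1* (r = 0.983), *Rap1gap2* to *Gpnmb* (r = 0.976), and *Slc36a1*, a lysosomal amino acid transporter, to *Flcn* (r = 0.960). For *Rragc*, *Rraga* and *Fnip2*, which moved little, the closest were *Coro1c* (r = 0.923), *Trim34a* (r = 0.895) and *Rex1bd* (r = 0.884). Each was picked from at least 11939 genes, the libraries of a day are alike in nearly all genes, and the values are descriptions only. Within the 10 genes, *Tfeb* and *Mitf* had r = 0.975 and *Flcn* and *Fnip1* r = 0.926.

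In GFP+ cells the question was which of these genes respond to loss of *Nprl2* or *Tsc2*, which act on mTORC1 through Rag and through Rheb. Both KO comparisons use the same wild-type libraries. In *Nprl2* KO, 3 of the 10 genes differed from wild-type, all lower, where 6.43% of all 13725 genes tested differed (2.78% higher, 3.66% lower). In *Tsc2* KO, 3 differed, 2 higher and 1 lower, against 29.1% of all genes (14.9% higher, 14.2% lower). Compared directly, the KO lines differed in 6 of the 10, 5 higher and 1 lower in *Tsc2* KO, against 34.2% of all genes (17.5% higher, 16.6% lower). The median log2FC over the 10 genes was -0.40 in *Nprl2* KO, 0.34 in *Tsc2* KO and 0.44 between them, each beside 0.00, 0.00 and -0.01 over all genes tested.

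**Figure D3:**
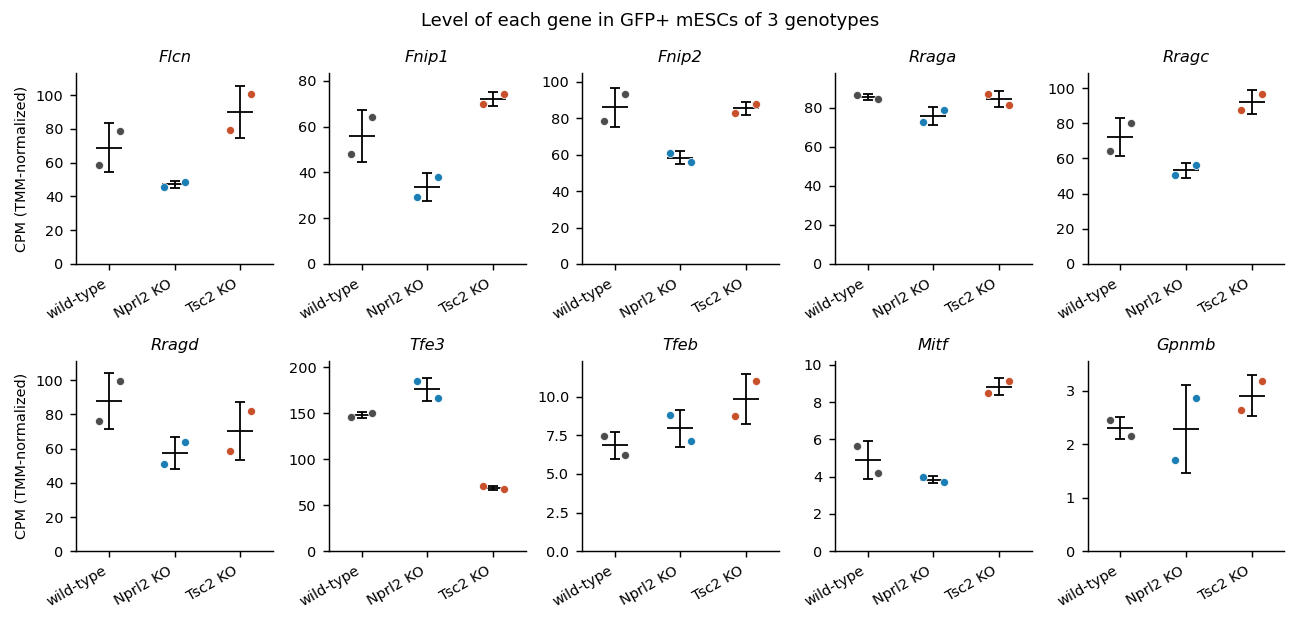
Level of each of the 10 genes in GFP+ mESCs (CPM on TMM-normalized library sizes, linear axis from 0). Points are libraries (2 per genotype), horizontal bars are means and vertical bars are SDs. *Tfe3* is lowest in both *Tsc2* KO libraries (67.2 and 70.7 CPM), and *Flcn*, *Fnip1*, *Fnip2* and *Rragc* are lowest in both *Nprl2* KO libraries.

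*Tfe3* and *Mitf* changed in opposite directions in *Tsc2* KO. *Tfe3* was at 145.6 and 150.6 CPM in the wild-type pair of libraries, at 185.3 and 167.2 CPM in the *Nprl2* KO pair and at 70.7 and 67.2 CPM in the *Tsc2* KO pair. Its level in *Tsc2* KO was 2.15-fold below wild-type (log2FC -1.10, SE 0.08, adjusted p = 1.84e-06) and 2.56-fold below *Nprl2* KO (log2FC -1.35, SE 0.08, adjusted p = 1.57e-07). In *Nprl2* KO it stood above wild-type in both libraries by 0.25 on the log2 scale, which did not pass (95% interval 0.09 to 0.41, adjusted p = 0.0646). Over the 496 tested genes of the X chromosome the median log2FC was -0.07 for *Tsc2* KO against wild-type.

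*Mitf* was low in all genotypes, at 5.63 and 4.19 CPM in the wild-type pair of libraries, at 3.97 and 3.71 CPM in the *Nprl2* KO pair and at 8.49 and 9.13 CPM in the *Tsc2* KO pair. Its *Tsc2* KO level exceeded wild-type (log2FC 0.83, SE 0.21, adjusted p = 0.0125) and *Nprl2* KO (log2FC 1.20, SE 0.22, adjusted p = 0.00108). Its call against wild-type was lost without *Tsc2* KO replicate 2 (adjusted p = 0.0788), without wild-type replicate 2 (0.0873), with DESeq2 (0.0920) and with limma on TPM (0.0553). In *Tsc2* KO, the transcript from the most upstream start held 99.0% to 100% of the gene's TPM, at 3.21 and 3.55 TPM, and that from the most downstream start, the main one of day 0, was at no more than 0.0309 TPM. The upstream transcript also held most of the gene's TPM in the *Nprl2* KO pair of libraries, at 70.1% and 94.6%. The 2 wild-type libraries were not alike in this respect, with the upstream transcript at 0 in one and at 1.56 TPM in the other.

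*Tfeb* was at 7.45 and 6.23 CPM in the wild-type pair of libraries, at 8.80 and 7.12 CPM in the *Nprl2* KO pair and at 8.73 and 11 CPM in the *Tsc2* KO pair. Both *Tsc2* KO libraries lay above wild-type, by 0.52 on the log2 scale, without passing the test (95% interval 0.08 to 0.97, adjusted p = 0.0736). The 3 factors summed to 97.4 ± 0.00990 TPM (wild-type), 112.0 ± 7.98 TPM (*Nprl2* KO) and 54.3 ± 0.950 TPM (*Tsc2* KO; SD, n = 2), and *Tfe3* made up 92.2%, 93.0% and 78.5% of it. With 2 libraries against 2, the exact permutation test cannot give less than p = 0.333, which it gave for both the sum and the share in *Tsc2* KO against wild-type.

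The folliculin complex genes were lowest in *Nprl2* KO. *Fnip1* was at 48.1 and 64.0 CPM in the wild-type pair of libraries, at 29.1 and 37.9 CPM in the *Nprl2* KO pair and at 69.9 and 74.4 CPM in the *Tsc2* KO pair, with no overlap between any 2 genotypes. It was 1.66-fold below wild-type in *Nprl2* KO (log2FC -0.73, SE 0.16, adjusted p = 0.0320), and a log2FC of 0.37 for *Tsc2* KO did not pass (95% interval 0.02 to 0.72, adjusted p = 0.103). *Fnip2* was at 78.6 and 93.6 CPM in the wild-type pair of libraries, at 61.1 and 55.8 CPM in the *Nprl2* KO pair and at 83.0 and 87.9 CPM in the *Tsc2* KO pair. It was 1.47-fold lower in *Nprl2* KO (log2FC -0.56, SE 0.10, adjusted p = 0.00635), while *Tsc2* KO and wild-type were apart by -0.01 (log2FC, 95% interval -0.22 to 0.20, adjusted p = 0.968).

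The calls in *Nprl2* KO depended on single libraries, and that of *Fnip1* also on the method. The call of *Fnip1* was lost without wild-type replicate 2 (log2FC -0.51) and without *Nprl2* KO replicate 1 (-0.57). That of *Fnip2* was lost without *Nprl2* KO replicate 2 (log2FC -0.49). *Fnip1* was also not called with limma on log2(TPM + 0.1) (adjusted p = 0.0512) or with only those 2 groups fitted (0.0516). *Flcn* itself was at 58.5 and 79.0 CPM in the wild-type pair of libraries, at 45.6 and 48.6 CPM in the *Nprl2* KO pair and at 79.2 and 100.9 CPM in the *Tsc2* KO pair. Its log2FC values against wild-type were -0.54 (95% interval -0.93 to -0.15, adjusted p = 0.113) in *Nprl2* KO and 0.40 (95% interval 0.02 to 0.77, adjusted p = 0.108) in *Tsc2* KO, neither past the threshold. Several alternatives brought *Flcn* past it. In *Nprl2* KO these were DESeq2 (adjusted p = 0.0158), no filter on low counts (1.23e-05), the replicate number as a block (3.40e-04) and the fit without wild-type replicate 1 (0.0147). In *Tsc2* KO they were no filter (8.15e-04), the block (9.36e-04) and the fits without *Tsc2* KO replicate 1 (0.0305) or wild-type replicate 2 (0.00989). *Fnip1* also passed in *Tsc2* KO with no filter (0.00389), with the block (0.00240) and without wild-type replicate 2 (0.0134).

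Between the KO lines, these genes differed in every alternative run. *Flcn* was 1.91-fold higher in *Tsc2* KO than in *Nprl2* KO (log2FC 0.93, SE 0.16, adjusted p = 0.00352). *Fnip1* was 2.14-fold higher (log2FC 1.10, SE 0.16, adjusted p = 7.67e-04) and *Fnip2* 1.46-fold higher (log2FC 0.55, SE 0.10, adjusted p = 9.74e-04). The largest adjusted p over 13 alternative fits was 0.0326 for *Flcn*, 0.00789 for *Fnip1* and 0.0143 for *Fnip2*.

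*Rragc* followed the folliculin genes in its order of genotypes. It was at 64.4 and 80.0 CPM in the wild-type pair of libraries, at 50.3 and 56.1 CPM in the *Nprl2* KO pair and at 87.4 and 96.9 CPM in the *Tsc2* KO pair, with no overlap. Against wild-type its log2FC was -0.43 for *Nprl2* KO (SE 0.11, adjusted p = 0.0432) and 0.36 for *Tsc2* KO (SE 0.11, adjusted p = 0.0303), both past the threshold, and 1.73-fold higher in *Tsc2* KO than in *Nprl2* KO (log2FC 0.79, SE 0.11, adjusted p = 2.22e-04). The call in *Nprl2* KO was lost with limma on TPM (adjusted p = 0.0656) and with only those 2 groups fitted (0.0606). The call was also lost without wild-type replicate 2 (log2FC -0.27) and without *Nprl2* KO replicate 1 (-0.37) or replicate 2 (-0.52). That in *Tsc2* KO was lost without wild-type replicate 1 (0.273), without *Tsc2* KO replicate 2 (0.199) and with DESeq2 (0.0504), and the direct comparison of KO lines passed in all 13 alternatives.

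The other Rag genes did not pass the test between genotypes, a result that the processing changed for *Rragd*. *Rragd* was at 76.2 and 99.6 CPM in the wild-type pair of libraries, at 50.9 and 64.2 CPM in the *Nprl2* KO pair and at 58.4 and 82.1 CPM in the *Tsc2* KO pair. Both *Nprl2* KO libraries lay below wild-type, with a log2FC of -0.60 and a wide interval (95% interval -1.17 to -0.03, adjusted p = 0.209), and *Tsc2* KO overlapped wild-type (log2FC -0.32, 95% interval -0.88 to 0.25, adjusted p = 0.356). *Rraga* was at 86.7 and 84.4 CPM in the wild-type pair of libraries, at 72.6 and 78.9 CPM in the *Nprl2* KO pair and at 87.1 and 81.4 CPM in the *Tsc2* KO pair, with log2FC values of -0.17 (95% interval -0.35 to 0.01, adjusted p = 0.246) and -0.02 (95% interval -0.20 to 0.16, adjusted p = 0.866) against wild-type. In each of the 3 genotypes replicate 2 was the higher library for *Rragd*, *Rragc*, *Flcn* and *Fnip1*. With the replicate number as a block, *Rragd* passed in *Nprl2* KO (log2FC -0.61, adjusted p = 2.39e-05), in *Tsc2* KO (log2FC -0.33, adjusted p = 0.00176) and between the KO lines (log2FC 0.28, adjusted p = 0.00537). It also passed in these 3 comparisons with no filter on low counts (adjusted p = 1.98e-07, 0.00696 and 0.0218) and in *Nprl2* KO with DESeq2 (adjusted p = 0.0110). *Rraga* passed between the KO lines with limma on TPM (adjusted p = 0.0464). The ratio of *Rragd* to *Rragc* TPM was 0.610 ± 0.0210 for wild-type, 0.538 ± 0.0503 for *Nprl2* KO and 0.380 ± 0.0639 for *Tsc2* KO (SD, n = 2).

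*Gpnmb* was at 2.45 and 2.16 CPM in the wild-type pair of libraries, at 1.70 and 2.86 CPM in the *Nprl2* KO pair and at 2.64 and 3.19 CPM in the *Tsc2* KO pair, from 18 to 44 counts per library. Its log2FC was 0.00 in *Nprl2* KO (95% interval -0.78 to 0.78, adjusted p = 1.00) and 0.33 in *Tsc2* KO (95% interval -0.39 to 1.06, adjusted p = 0.494), intervals wide enough to hold a doubling in *Tsc2* KO. Genes of the feeder fibroblasts on which these cells were grown summed, over 8 markers, to 356 and 254 CPM (wild-type), 283 and 268 CPM (*Nprl2* KO) and 310 and 81.4 CPM (*Tsc2* KO), and their part in the results was not tested. Most of this sum came from *Col1a1* (37.2 to 179 CPM over the 6 libraries) and *Col1a2* (17.5 to 96.6 CPM), while *Dcn* and *Lum* were at no more than 0.999 and 0.182 CPM.

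**Figure D4:**
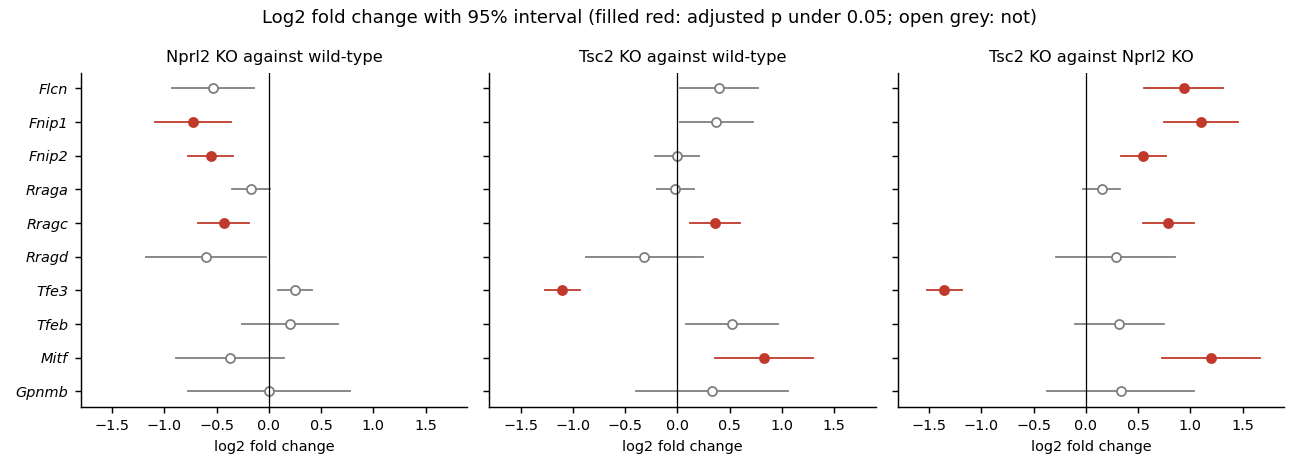
The log2FC of the 10 genes between GFP+ genotypes from edgeR (first-named genotype minus second), with 95% intervals as horizontal lines. Filled red points passed an adjusted p of 0.05 over all genes tested and open grey points did not. *Tfe3* (-1.10 and -1.35) lies left of zero in both comparisons of *Tsc2* KO, while *Flcn*, *Fnip1*, *Fnip2*, *Rragc* and *Mitf* are higher in *Tsc2* KO than in *Nprl2* KO.

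The partners of the Rag GTPases were set beside the 10 genes. Of 8 listed (*Rragb*, the 5 Ragulator genes *Lamtor1* to *Lamtor5*, the arginine sensor *Slc38a9* and the fourth MiT/TFE gene *Tfec*), 7 were tested, and *Tfec* was at no more than 0.0860 CPM on average in any group. None of the 7 passed in *Nprl2* KO, where 6.43% of all genes did. In *Tsc2* KO, where 29.1% of all genes passed, only *Rragb*, the close relative of *Rraga*, did. It was at 32.6 CPM against 47.4 CPM in wild-type (log2FC -0.54, SE 0.10, adjusted p = 0.00171). *Rragb* rose from 40.5 CPM on day 0 to 70.4 CPM on day 1 (log2FC 0.80, SE 0.07, adjusted p = 8.54e-09), and *Slc38a9* from 12.4 CPM on day 1 to 22.6 CPM on day 2 (log2FC 0.86, SE 0.11, adjusted p = 1.18e-06). Over all 7 partners, 2 were higher and 1 lower between the KO lines (34.2% of all genes were called), 2 rose and 0 fell on the first day (60.9%), 1 rose and 1 fell on the second (62.1%), 0 were called on the third (31.5%), and 3 were higher and 2 lower on day 3 than on day 0 (70.9%). The median log2FC of the 7 lay between -0.12 and 0.18 over the 7 comparisons.

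The 14 listed regulators of the Rags come from the Gator1, Gator2 and Kicstor complexes and the sestrins. In *Nprl2* KO, where 6.43% of all genes passed, 2 of the 14 did, 1 of them the deleted *Nprl2*. The other, *Sesn2*, a leucine sensor gene, rose from 150.4 CPM to 221.9 CPM (log2FC 0.56, SE 0.08, adjusted p = 0.00221). In *Tsc2* KO, *Sesn1* was higher (40.7 against 18.9 CPM, log2FC 1.09, SE 0.14, adjusted p = 1.59e-04), and *Sesn3* (16.1 against 30.3 CPM, log2FC -0.91, SE 0.13, adjusted p = 2.68e-04) and *Seh1l* were lower. In that comparison 29.1% of all genes passed. Between the KO lines 3 of the 14 were higher and 5 lower in *Tsc2* KO, where 34.2% of all genes were called. Over the time course 5 rose and 4 fell on the first day (60.9% of all genes called), 4 rose and 6 fell on the second (62.1%), 0 rose and 2 fell on the third (31.5%), and 5 were higher and 4 lower on day 3 than on day 0 (70.9%). The counts of the first and second days are near the share of all genes, and the median log2FC of the 14 stayed between -0.14 and 0.04 in all 7 comparisons. *Sesn3* also rose over the time course, from 13.5 CPM on day 0 to 30.5 CPM on day 3 (log2FC 1.17, SE 0.09, adjusted p = 1.20e-09).

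The lysosomal and autophagy genes known as targets of the MiT/TFE factors moved as follows. Of 29 listed, 27 were tested. In *Nprl2* KO, 8 were lower and 1 was higher than in wild-type, where 3.66% of all genes were lower and 2.78% higher, with a median log2FC of -0.27. Among those lower was *Hexa*, which encodes a lysosomal enzyme (log2FC -0.74, SE 0.13, adjusted p = 0.00511), and *Sqstm1*, an autophagy receptor gene, was the one that rose (log2FC 0.44, adjusted p = 0.00522). In *Tsc2* KO, 21 of the 27 were higher and 0 lower (median 0.39), against 14.9% and 14.2% of all genes, led by the autophagy gene *Wipi1* (log2FC 0.90, SE 0.20, adjusted p = 0.00581) and *Hexa* (log2FC 0.85, SE 0.12, adjusted p = 2.30e-04). The only tested gene of the list with a negative value there was *Naglu*, at 1.08 against 1.99 CPM. Between the KO lines, 26 of the 27 were higher in *Tsc2* KO and 0 lower (median 0.72), against 17.5% and 16.6% of all genes, led by *Hexa* at 76.7 against 25.5 CPM (log2FC 1.59, SE 0.12, adjusted p = 1.82e-06).

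These counts moved when a library was left out. In those fits fewer of all genes were called as well, in each comparison between genotypes. In *Tsc2* KO against wild-type, 8 targets were higher without *Tsc2* KO replicate 2 and 9 without wild-type replicate 1, with 0 lower in each of the 13 alternatives. In *Nprl2* KO, 3 were lower without wild-type replicate 2 or without *Nprl2* KO replicate 2, and 4 without *Nprl2* KO replicate 1. The median stayed between 0.32 and 0.49 in the first case and between -0.32 and -0.19 in the second. Between the KO lines at least 19 were higher in every alternative.

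On the first day of differentiation, 23 of the 27 targets fell and 1 rose, with a median log2FC of -0.59, where 30.8% of all genes fell. The largest falls were those of *Naglu* (log2FC -1.77, SE 0.42, adjusted p = 0.00129), which was at 1.94 CPM on day 0, and *Hexa*, from 88.0 to 27.5 CPM (log2FC -1.68, SE 0.08, adjusted p = 2.33e-12). The gene that rose, *Atp6v1h*, encodes a subunit of the vacuolar proton pump (log2FC 0.28, SE 0.06, adjusted p = 0.00104). From day 1 to day 2, 9 rose and 8 fell (median 0.02), against 32.5% and 29.6% of all genes, and from day 2 to day 3, 8 rose and 0 fell (median 0.15), against 15.9% and 15.6%. On day 3, 17 were below and 4 above their day 0 level (median -0.41), against 35.9% and 35% of all genes, among them *Glb1*, which encodes the lysosomal β-galactosidase (log2FC -1.86, SE 0.10, adjusted p = 9.75e-12).

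The targets and *Tfe3* thus had different courses on the scale of RNA. *Tfe3* RNA was at its highest on day 1 and its lowest in *Tsc2* KO. Most tested targets were lower on day 1 than on day 0 and higher in *Tsc2* KO than in wild-type. *Tfeb* and *Mitf* RNA fell with the targets on day 1, and *Mitf* RNA was higher with them in *Tsc2* KO, a call that some alternatives lost. From day 2 to day 3, *Tfeb* RNA fell (log2FC -0.55) while 8 targets rose and 0 fell. In *Nprl2* KO, where 8 targets were lower and 1 higher, *Tfeb* and *Mitf* RNA passed no test (log2FC 0.20 and -0.37). The files hold RNA levels only, and the place of the proteins in the cell was not measured in them.

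**Figure D5:**
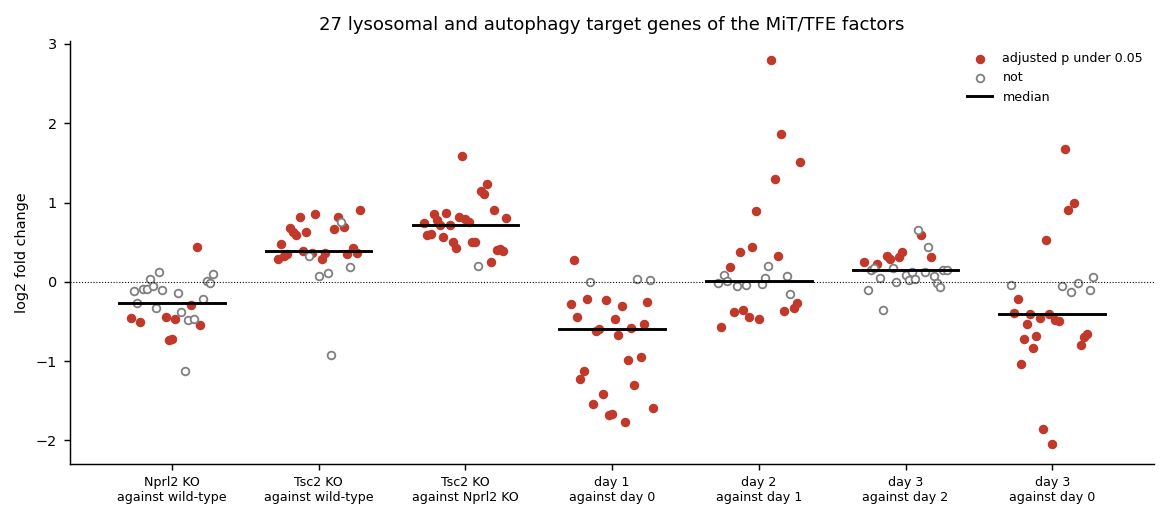
The log2FC of each of the 27 tested lysosomal and autophagy targets (points) in the 7 comparisons (first-named group minus second), with the median as a black line. Filled red points passed an adjusted p of 0.05 over all genes tested. Of the 27, 23 are filled below zero for day 1 against day 0, and 21 and 26 are filled above zero in the comparisons of *Tsc2* KO with wild-type and with *Nprl2* KO.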

How the data were processed

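The files that the authors deposited give kallisto's estimated counts of each RefSeq transcript (kallisto 0.42.1 and mm10 per the submitters' processing notes) and its TPM, which kallisto scales for transcript length and library total, both without normalization between libraries. The authors also deposited a TPM table per gene symbol, in which all 180 values of the 10 genes matched the summed TPM within 0.1%. Tables of the authors' own DESeq2 comparisons hold fold changes and p-values and were not used. The methods name a strand-specific mRNA kit and paired-end reads on a HiSeq2500 for GFP+ cells. How the time-course libraries were made is not given in the sources used here. Transcript length minus effective length was 179 in every time-course library. In GFP+ libraries it was 170 to 184, except for *Nprl2* KO replicate 1, where it was 228.

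Estimated counts were summed per gene through RefSeq (33713 of 34079 transcripts) and GENCODE M21 (192), rounded, and tested with edgeR 4.0.16 in R 4.3.3 (TMM normalization, filterByExpr, robust quasi-likelihood fits, Benjamini-Hochberg adjustment, threshold 0.05). The 6 GFP+ libraries and the 12 time-course libraries were fitted separately, so CPM is not comparable between the sets. Between 1.65% and 3.57% of counts had no gene. Replicates differed by more than sampling noise (chi-square per gene 1.82 to 9.06 over 15 pairs, where sampling alone gives 1). The common biological coefficient of variation was 0.0777 in GFP+ cells and 0.0728 in the time course. Levels of different genes were compared in TPM, and shares by exact permutation tests. Fits were tested on simulated data.

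All 10 genes are named. Of each list, the 2 genes with the largest rise and the 2 with the largest fall among those called may be named per comparison (1 of these is not reported here), any partner of the Rags may be named, and 3 genes most like each of the 10 were found by Pearson correlation among tested genes whose log2 CPM averaged 1 or more. The genes, lists and tests were chosen with earlier results of these data known. *Naglu* in *Tsc2* KO and the marker *Pmel* were singled out after their values were seen. Alternatives were DESeq2 1.42.0, upper-quartile normalization, other filters, the replicate number as a block, fits of 2 groups alone, limma 3.58.1 on log2(TPM + 1) or log2(TPM + 0.1), and leaving out each library.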

Additional observations from a re-analysis of the deposited data

How the results depend on the processing

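The numbers of called genes moved with the processing mainly where a KO line was set against wild-type. For *Nprl2* KO against wild-type, 3 of the 10 genes were called, 5 with DESeq2, 6 with no filter on low counts, 1 with limma on log2(TPM + 0.1), 1 with only those 2 groups fitted, and between 1 and 4 when a library was left out. For *Tsc2* KO against wild-type, 3 were called, 1 with DESeq2, 7 with no filter on low counts, and between 1 and 4 when a library was left out. For day 3 against day 2 the count was 3, and between 1 and 4 without one library. The other counts, including the 6 between the KO lines, stayed within 1.5 times under all alternatives. With the replicate number as a block, 6 genes were called for *Nprl2* KO and 7 for *Tsc2* KO against wild-type. The numbers do not pair the libraries by their labels, and deviations from group means correlated at 0.085 to 0.164 between libraries of the same number in GFP+ cells and at -0.113 to 0.133 in the time course. Calls against wild-type moved over all genes as well. With the block they went from 883 to 2072 of 13725 genes tested in *Nprl2* KO. In *Tsc2* KO they went from 3996 to 5255. With no filter they were 1667 and 4638 of 19367, and with DESeq2 674 of 11588 and 2742 of 13440. The cause of these shifts was not tested. Where leaving out a library left 1 in its group, that library was assumed to vary like the other groups.

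Signs turned only for values near 0 that passed no test. *Gpnmb* in *Nprl2* KO was 0.00387 with at least 10 counts per library and -0.44 to 0.29 without one library. *Fnip2* in *Tsc2* KO was 0.0253 and 0.0264 with limma on log2(TPM + 1) and log2(TPM + 0.1), and -0.14 to 0.12 without one library. *Rraga* in *Tsc2* KO was 0.0172 and 0.0173 with limma, and -0.0704 to 0.0312 without one library. *Rragc* from day 1 to day 2 was 0.00760 and 0.00773 with limma. Without one library, *Mitf* and *Tfeb* over the same step were -0.26 to 0.56 and -0.0315 to 0.17, and *Gpnmb* from day 2 to day 3 was -0.13 to 0.0700. *Fnip2* from day 2 to day 3 was 0.0183 with DESeq2, 0.0159 with no filter, 0.0392 and 0.0407 with limma, and -0.0189 to 0.0338 without one library. From day 0 to day 3 it was 0.00179 with upper-quartile normalization, 0.0456 and 0.0474 with limma, and -0.0810 to 0.0258 without one library. Of the 974 alternative log2FC values of the 10 genes, 869 kept direction and call, 34 gained a call and 37 lost one. The deposited gene table gave the same limma values. A planned sum of counts by the symbols of that table was not run, since the table lists no transcripts. Depth limits *Gpnmb* and *Mitf* most, with 3 to 44 and, after day 0, 11 to 126 counts per library.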

Other observations

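GFP+ wild-type cells and day 0 cells of the time course share a genotype but come from separate sets of libraries. Their culture and preparation may differ, so their levels are set side by side without a test. Formative markers summed to 817 to 945 CPM in GFP+ wild-type cells and 214 to 283 CPM on day 0. ES cell markers summed to 3405 to 3564 CPM and 4963 to 5235 CPM. These CPM come from separate fits, and the part of cell state in the values below was not tested. *Tfeb* was at 5.65 TPM in GFP+ wild-type cells and at 49.2 TPM on day 0, and *Mitf* at 1.92 and 13.9 TPM. *Tfe3* was at 89.8 and 95.7 TPM. *Tfe3* thus made up 92.2% of the summed TPM of the 3 factors in GFP+ wild-type cells, between its share on day 0 (60.3%) and on day 1 (97.6%). *Rragd* was at 31.9 TPM in GFP+ wild-type cells, between day 1 (28.2 TPM) and day 2 (60.5 TPM), and *Gpnmb* was at 1.11 TPM against 0.538 TPM on day 0 and 1.20 TPM on day 2.

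The ratio of *Rraga* TPM to the summed TPM of *Rragc* and *Rragd*, whose products pair with RagA, was 1.51 ± 0.109 on day 0, 1.29 ± 0.0656 on day 1, 1.03 ± 0.0687 on day 2 and 0.830 ± 0.0507 on day 3 (SD, n = 3). The ranges of neighbouring days did not overlap. In GFP+ cells the ratio was 1.23 ± 0.227 for wild-type, 1.55 ± 0.0932 for *Nprl2* KO and 1.11 ± 0.186 for *Tsc2* KO (SD, n = 2), and the last overlapped wild-type. *Fnip1* made up 42.3% ± 1.93 of the TPM of the *Fnip* pair for wild-type, 39.3% ± 5.96 for *Nprl2* KO and 48.9% ± 0.0700 for *Tsc2* KO (SD, n = 2).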
